A study of Sus scrofa with 15 samples.

Results

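The phenylalanine and tyrosine breakdown genes of the piglet liver were followed in saline-treated (CON) and lipopolysaccharide-treated (LPS) animals. The 7 genes are those of a list of enzyme names, drawn up with earlier results of these data known, and are TAT, HPD, HGD, GSTZ1, FAH, PCBD1 and QDPR. All 7 had a row in the deposited count table of 31908 Ensembl pig genes, and all 7 were among the 12774 genes tested after a low-count filter (edgeR's filterByExpr, minimum count 10). The animals were growing male Duroc x Large White x Landrace piglets. The LPS group was given 80 μg/kg of LPS into the peritoneal cavity and the CON group sterile saline, and the liver was taken 4 h later. Each group had 3 input libraries, that is, fragmented polyadenylated RNA that had not gone through the m6A immunoprecipitation. The sources used here state neither the piglets' age nor whether each library came from a separate piglet, so the tests measure the spread between these libraries, which may be technical.

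Tyrosine is broken down mainly in hepatocytes. TAT (tyrosine aminotransferase) removes the amino group, HPD (4-hydroxyphenylpyruvate dioxygenase) forms homogentisate, HGD (homogentisate dioxygenase) opens its ring, GSTZ1 (maleylacetoacetate isomerase) turns the product into fumarylacetoacetate, and FAH (fumarylacetoacetate hydrolase) cuts that into fumarate and acetoacetate. PCBD1 (pterin-4a-carbinolamine dehydratase) and QDPR (dihydropteridine reductase) act one after the other to regenerate tetrahydrobiopterin, the cofactor of the aromatic amino acid hydroxylases. Loss of HPD, HGD or FAH causes inherited disorders of tyrosine metabolism, and TAT is a textbook gene of the glucocorticoid response of the liver.

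The CON libraries held 5927348 to 10351491 counts and the LPS libraries 4348478 to 19967417, and the TMM scaling factor (edgeR's trimmed mean of M values) was 0.735 in LPS replicate 3 and 0.979 to 1.11 in the others. LPS replicate 2 was nearer to the CON libraries than to its own group in log2 CPM over the 12774 genes. Its Pearson coefficient was 0.928 to 0.949 with the CON libraries, and 0.914 and 0.858 with LPS replicates 1 and 3. LPS replicates 1 and 3 had 0.909 with each other and 0.844 to 0.906 with the CON libraries. Without LPS replicate 2 edgeR called 512 genes higher and 470 lower over the whole table, against 7 and 0 with all 6 libraries. Levels are in CPM, each gene's count scaled to a common library size with this factor. A gene was called when edgeR's quasi-likelihood test gave a Benjamini-Hochberg adjusted p below 0.05 over all tested genes and a fold change above 1.5. The member counts behind the values ran from 58 reads, for HGD in LPS replicate 1, to 9428, for HPD in CON replicate 3. The 58 reads have an exact 95% Poisson interval from 44.0 to 75.0, which covers counting error only.

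In the CON livers all of the 7 genes lay in the upper part of the expressed genes when levels were divided by gene length. HPD was highest, with 379 ± 139 CPM per kilobase (mean ± SD, n = 3), at the 99.2th percentile of tested genes. TAT followed with 180 ± 91.8 CPM per kilobase. QDPR had 71.3 ± 42.7, PCBD1 69.7 ± 16.5 and FAH 55.2 ± 6.2 CPM per kilobase. HGD (21.4 ± 9.2) and GSTZ1 (13.9 ± 3.1 CPM per kilobase, at the 81.3th percentile) were lowest, against a median of 3.43 over all tested genes. In this order, FAH and HGD were the neighbours whose CON libraries did not overlap (51.2 to 62.3 against 13.3 to 31.4 CPM per kilobase), whereas the neighbours within the pairs HPD and TAT, TAT and QDPR, QDPR and PCBD1, PCBD1 and FAH, and HGD and GSTZ1 had overlapping ranges. Within each CON library, however, HPD was above TAT, TAT above QDPR, FAH above HGD and HGD above GSTZ1. The order of QDPR and PCBD1, and that of PCBD1 and FAH, differed between the CON libraries. In the LPS livers HPD (333 ± 218) and TAT (161 ± 46.0) remained the highest and GSTZ1 (6.95 ± 1.74 CPM per kilobase) the lowest, while QDPR, with 33.6 ± 30.0, came behind PCBD1 and FAH at 56.0 ± 24.9 and 38.5 ± 10.3. The last place of GSTZ1 rests on the deposited gene length, 6032 bases against 1908 for HGD. Before division by length, the mean of GSTZ1 was above that of HGD, at 84.0 against 40.8 CPM in CON livers and 41.9 against 30.2 in LPS livers.

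None of the 7 genes was called between the LPS and CON groups, and GSTZ1 came nearest to the threshold. The fitted log2 fold change was below 0 for all 7, between -0.16 for TAT and -1.09 for QDPR, with a median of -0.43. Of all tested genes 49.5% were below 0, and their median was 0.01. edgeR called 0 of the 7, and 0.0548% of the tested genes (7 of 12774, all higher in the LPS group). At an unadjusted p below 0.05, GSTZ1 was the 1 member lower, against 6.33% of tested genes. DESeq2 called 0 of the 7 as well, with 0.995% of its genes called lower. In GSTZ1 and FAH all 3 LPS libraries lay below all 3 CON libraries, 2 of 7 members against 9.80% of all tested genes. The direction of PCBD1, TAT and HPD turned when certain single libraries were left out, as given with each gene. In bulk liver RNA, fewer hepatocytes and less RNA per hepatocyte cannot be told apart.

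**Figure D1:**
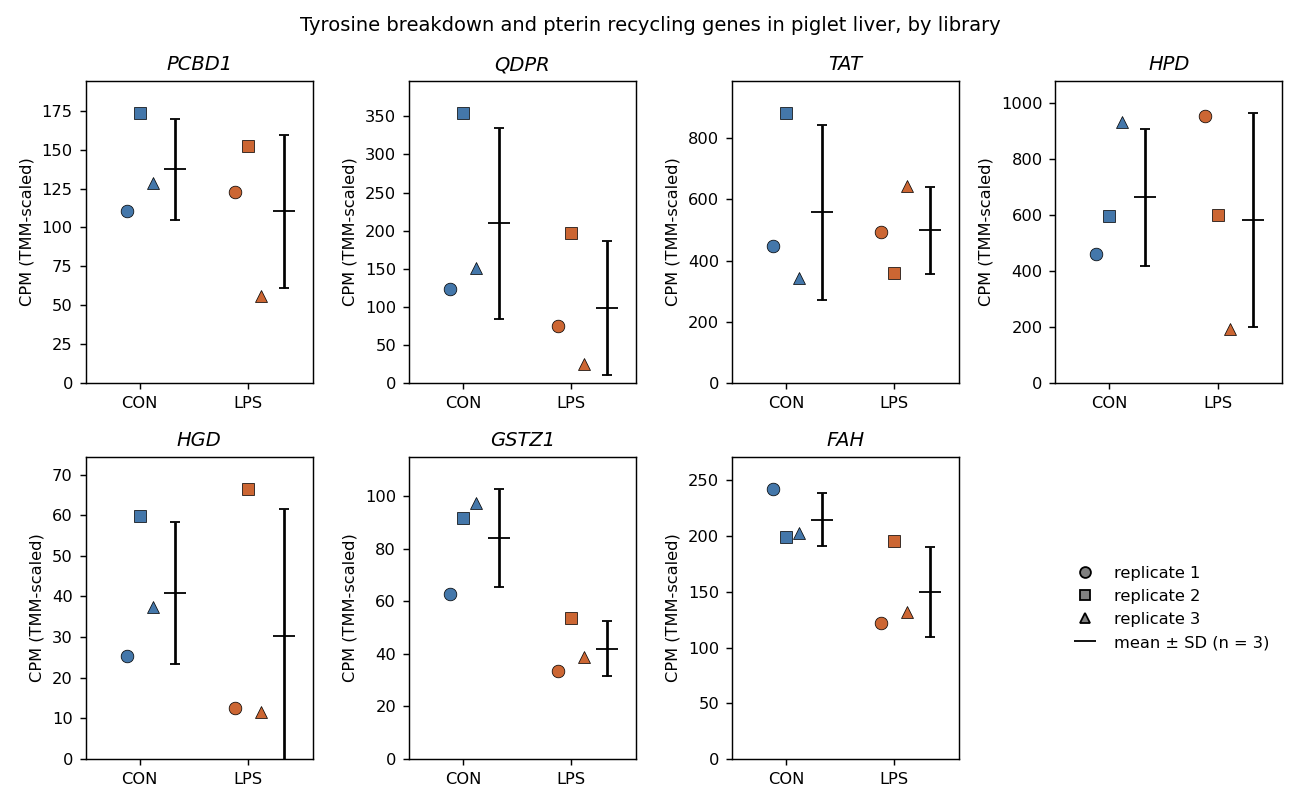
Level of each gene in every library, in TMM-scaled CPM on an axis from 0, with the CON group in blue and the LPS group in orange; symbols mark the replicate number and black bars the mean ± SD of 3 libraries (the lower end of the HGD bar in the LPS group is cut at 0). GSTZ1 and FAH are the genes whose groups do not overlap, and in HGD LPS replicate 2, at 66.4 CPM, stands above every CON library while the other two LPS libraries stand below them.

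Neither pterin-recycling gene passed the test. QDPR (ENSSSCG00000034811, chromosome 8 from 12335252 to 12549603, minus strand, 8 exons after merging; coordinates as in the deposited table, whose genome build the sources do not name) had 124, 354 and 151 CPM in the CON livers, replicates 1 to 3 in turn, and 74.6, 196 and 25.1 CPM in the LPS livers. LPS replicates 1 and 3 were below every CON library, and LPS replicate 2 was within the CON range, which itself spanned 2.86-fold. Its log2 fold change was -1.09 (standard error, SE, 0.68, 95% interval from -2.62 to 0.45, edgeR adjusted p = 0.551). The spread of QDPR was wide in both groups: its coefficient of variation was 59.9% among CON and 89.4% among LPS libraries, where the medians over tested genes were 24.7% and 36.3%. Without CON replicate 2, the library with most QDPR, the log2 fold change was -0.48, and without LPS replicate 2 it was -2.08 (edgeR adjusted p = 0.0620).

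PCBD1 (ENSSSCG00000010275, chromosome 14 from 73772835 to 73807281, minus strand, 6 exons), which acts just before QDPR, had 110, 173 and 128 CPM in the CON libraries and 123, 152 and 56.2 CPM in the LPS libraries. LPS replicates 1 and 2 lay inside the CON range, and LPS replicate 3 lay below it. The log2 fold change of -0.32 (SE 0.40, interval from -1.22 to 0.58, edgeR adjusted p = 0.782) rested on that library and became 0.015 without it. The gene overlaps SGPL1 on the opposite strand, over 270 exonic bases. SGPL1 had 95 to 426 reads per library against 562 to 1298 for PCBD1, and the sources do not say whether the counting used strand.

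For the opening steps of tyrosine breakdown the groups overlapped widely. TAT (ENSSSCG00000002736, chromosome 6 from 14570587 to 14583177, minus strand, 12 exons) had 448, 880 and 344 CPM in the CON libraries and 495, 358 and 643 CPM in the LPS libraries. Both the highest and the lowest of the 6 libraries were CON libraries. The log2 fold change was -0.16 (SE 0.42, adjusted p = 0.906 by edgeR). Its 95% interval corresponds to a fold from 0.470 to 1.71, so both a fall and a rise within those limits were compatible with these libraries. The log2 fold change became 0.33 without CON replicate 2 and 0.034 without LPS replicate 2. TAT varied less among the LPS libraries (28.6%) than among the CON libraries (51.1%), a difference that was not tested.

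HPD (ENSSSCG00000009805, chromosome 14 from 30845613 to 30857667, plus strand, 13 exons) had 460, 596 and 932 CPM in the CON libraries and 953, 599 and 193 CPM in the LPS libraries. The LPS group held both the highest and the lowest of the 6 values, which differed 4.93-fold, against a median of 2.02-fold between the highest and lowest LPS library over tested genes. Its log2 fold change was -0.19 (SE 0.53, interval from -1.38 to 1.00, edgeR adjusted p = 0.915). It turned to 0.24 without LPS replicate 3 and to 0.16 without CON replicate 3, and it was -0.74 without LPS replicate 1.

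HGD, GSTZ1 and FAH carry out the last steps of the route, after the ring of homogentisate is formed. HGD (ENSSSCG00000021227, chromosome 13 from 139660343 to 139710405, plus strand, 16 exons) had 25.3, 59.8 and 37.3 CPM in the CON libraries and 12.6, 66.4 and 11.5 CPM in the LPS libraries. LPS replicates 1 and 3 were about equal to each other and below every CON library, whereas LPS replicate 2 was the highest of all 6. The coefficient of variation in the LPS group, 104%, was at the 96.9th percentile of tested genes. With all libraries the log2 fold change was -0.43 (SE 0.66, interval from -1.91 to 1.04, edgeR adjusted p = 0.821). Without LPS replicate 2 it was -1.75 (SE 0.43, adjusted p = 0.0333 by edgeR), and HGD was then called, in a fit in which 3.45% of all tested genes were called lower. Without LPS replicate 1, LPS replicate 3 or CON replicate 2 it was -0.068, -0.026 and -0.054.

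GSTZ1 (ENSSSCG00000002396, chromosome 7 from 100392271 to 100408423, plus strand, 12 exons) had 62.7, 91.7 and 97.5 CPM in the CON libraries and 33.4, 53.7 and 38.8 CPM in the LPS libraries. Every LPS library lay below every CON library, and the group means were 84.0 ± 18.6 and 41.9 ± 10.5 CPM (mean ± SD, n = 3 per group). The log2 fold change was -1.001 (SE 0.33), a fold of 0.4996 with a 95% interval from 0.302 to 0.828. The adjusted p over all tested genes was 0.265 in edgeR and 0.165 in DESeq2, so GSTZ1 did not pass the threshold. Its log2 fold change stayed between -1.21 and -0.85 when each library was left out in turn, and the lowest edgeR adjusted p among these fits was 0.0636, without LPS replicate 2. The gene lies within the span of POMT2 on the opposite strand and shares 148 exonic bases with it. POMT2 had 46 to 114 reads per library and GSTZ1 153 to 986.

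FAH (ENSSSCG00000001780, chromosome 7 from 49047983 to 49105598, plus strand, 18 exons) was the steadiest of the genes in the CON group, with 242, 199 and 202 CPM and a coefficient of variation of 11.2%. The LPS libraries had 122, 196 and 132 CPM. All of them were below the CON libraries, but LPS replicate 2 was close to the lowest of these, CON replicate 2. The log2 fold change was -0.52 (SE 0.32, interval from -1.23 to 0.19, edgeR adjusted p = 0.534), and it was -0.76 without LPS replicate 2 and -0.38 without LPS replicate 1.

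**Figure D2:**
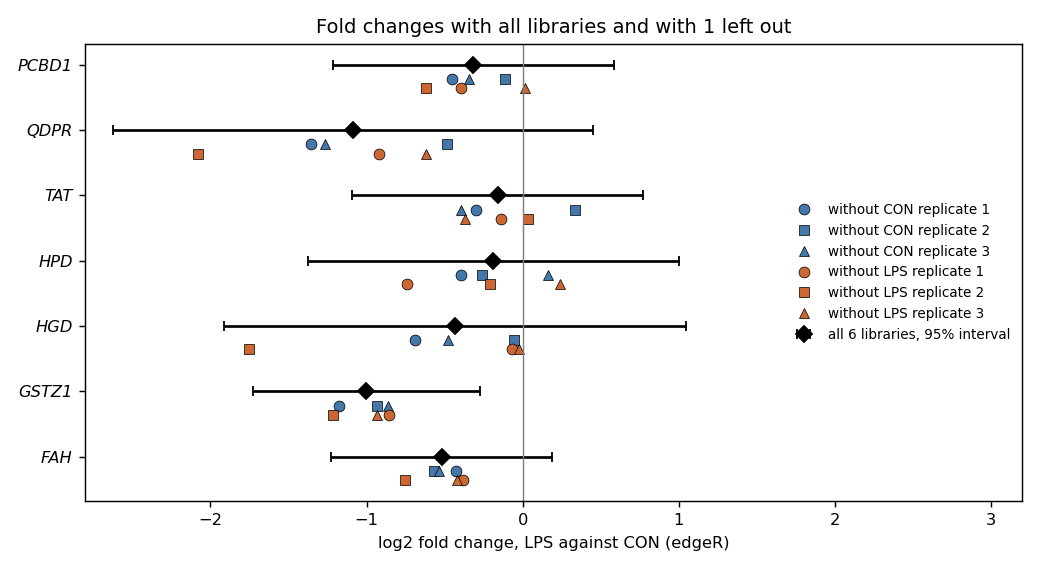
Log2 fold change of each gene, LPS against CON, in edgeR; black diamonds and bars give the value and 95% interval from all 6 libraries, and coloured symbols below give the value with the named library left out. The interval of GSTZ1, from -1.73 to -0.27, is the one that does not reach 0, and QDPR and HGD move furthest when LPS replicate 2 is left out.

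The 3 LPS libraries differed from each other in the 7 genes. LPS replicate 3 was below all 3 CON libraries for 6 of the 7 genes, every gene but TAT, where 37.2% of all tested genes were below. LPS replicate 1 was below them for 4 of 7 (QDPR, HGD, GSTZ1 and FAH), with 37.1% of all tested genes below, and LPS replicate 2 for 2 of 7 (GSTZ1 and FAH), with 26.5% below. On the log2 CPM scale and relative to the CON average, the 7 genes had medians of -0.81, -0.08 and -1.26 in the LPS libraries and of -0.39, 0.36 and -0.07 in the CON libraries. The lowest single value was QDPR in LPS replicate 3, at -2.88. When LPS replicate 2 was left out, 4 of the 7 genes (QDPR, HGD, GSTZ1 and FAH) were lower at an unadjusted p below 0.05, against 12.6% of all tested genes, and HGD was the 1 gene called. LPS replicate 2 was the LPS library most like the CON libraries, so leaving it out widens the difference between the groups. Leaving out any other single library gave 0 or 1 member lower at that p. The summed CPM of the 7 genes, which TAT and HPD dominate, was 1472, 2353 and 1893 in the CON libraries and 1813, 1621 and 1099 in the LPS libraries, so the sums overlapped between the groups.

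**Figure D3:**
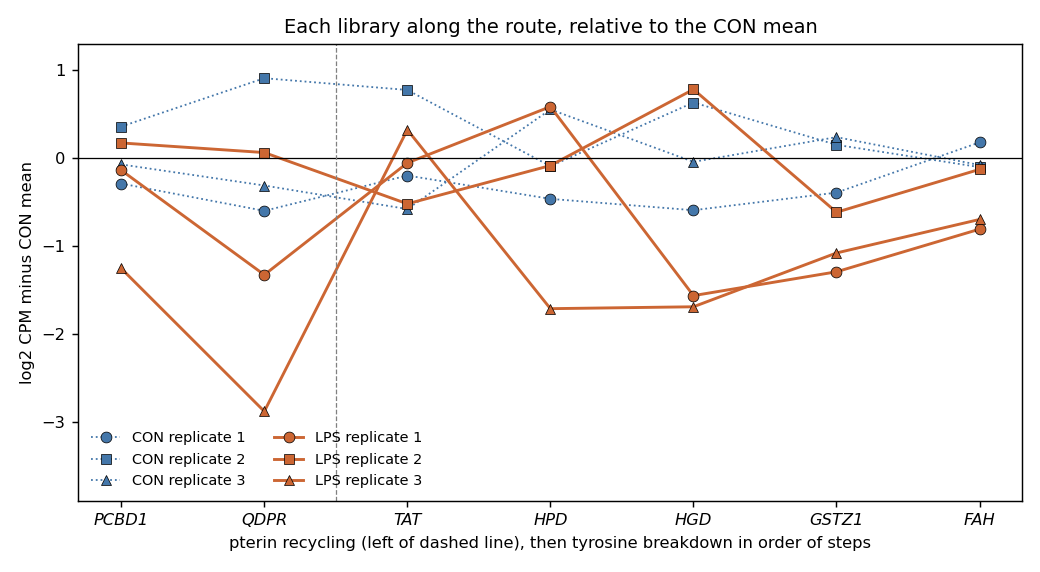
Log2 CPM of each gene minus its mean in the CON group, 1 line per library, with the pterin-recycling genes left of the dashed line and the tyrosine breakdown genes in order of their steps to the right; dotted blue lines are CON and solid orange lines LPS. LPS replicates 1 and 3 run together and below the CON libraries from HGD to FAH but apart at HPD, where they lie at 0.59 and -1.71, and LPS replicate 2 runs between -0.62 at GSTZ1 and 0.78 at HGD.

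Markers of hepatocytes and of other liver cells were read in the same libraries, and edgeR called 1 of them, S100A8, a neutrophil marker. The summed level of the 13 hepatocyte markers with a row, other than TAT and HPD, was 82751 to 103931 CPM in the CON libraries and 68610 to 136097 in the LPS libraries. On the log2 scale their median against the CON average was -0.76, -0.56 and -0.17 across LPS replicates 1 to 3, so LPS replicate 3 was nearest to the CON libraries. Their sum was 68610, 72225 and 136097 CPM in these libraries, below the CON range in LPS replicates 1 and 2 and above it in LPS replicate 3. FGB alone had 44857 CPM in LPS replicate 3, against 8076 to 12677 in the CON libraries. ALB, which encodes albumin, had 20257 to 37898 CPM in the CON libraries and 12345 to 19631 in the LPS libraries, without overlap. With ASGR1, ASGR2 and CYP2E1, ALB was 1 of 4 of the 15 tested hepatocyte markers with all LPS libraries below all CON libraries. This was the pattern of GSTZ1 and FAH and of 9.80% of all tested genes. FGB was the 1 marker with all LPS libraries above all CON libraries, as in 833 of the 12774 tested genes. Of the 15 markers, 4 had a log2 fold change above 0 and 11 below. Because the markers moved in both directions, neither their sum nor their median was taken as a measure of hepatocyte content. SERPINA1 was low throughout, at 1.23 to 7.17 CPM. The 9 neutrophil markers with a row summed to between 15.7 and 26.7 CPM in CON libraries, against 74.2 to 308 in LPS libraries. CSF3R (46.7 to 100 CPM) and S100A12 (18.3 to 153 CPM) had the highest levels among them in the LPS libraries. Others in the list were low and did not rise. MPO had 0.779 to 1.16 CPM in CON and 0.272 to 1.09 in LPS libraries, ELANE 1.09 to 1.87 and 0.489 to 1.74, and CD177 0.267 to 0.888 and 0 to 0.217. MMP8 had no read in any CON library. The part of such shifts in the values of the tyrosine genes was not tested. Median log2 fold changes, LPS against CON, were -0.31 for 15 tested hepatocyte markers (TAT and HPD included), 2.91 for 5 neutrophil, -0.48 for 11 Kupffer cell or macrophage, -0.19 for 8 T or NK cell, -0.22 for 5 B or plasma cell, -0.48 for 7 endothelial, 0.03 for 9 cholangiocyte or stellate cell and 1.19 for 2 red blood cell or platelet markers. The neutrophil median covers only the 5 of 9 markers that passed the low-count filter. S100A8 had 0.312 to 0.395 CPM in the CON libraries and 5.06 to 25.6 in the LPS libraries. It passed that filter through the LPS group, so its place among the tested genes already reflects its high LPS level.

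Ratios between genes of the same library do not depend on library scaling, so each gene was also set against HPD. The log2 ratio of TAT to HPD in CPM was -0.04, 0.56 and -1.44 in the CON libraries and -0.95, -0.74 and 1.73 in the LPS libraries. The ratio was highest in LPS replicate 3, and the groups overlapped. These ratios are not divided by gene length. Per kilobase, TAT was above HPD in LPS replicate 3 alone (208 against 111 CPM per kilobase). Over the 6 ratios the LPS group minus the CON group ranged from -0.99, for QDPR over HPD, to 0.32, for TAT over HPD. The exact two-sided permutation p was 0.3 for QDPR and 0.6 to 0.9 for the others (n = 3 per group), all with a Benjamini-Hochberg adjusted p of 0.9 over the 6 ratios, in a design that cannot go below 0.1. The log2 ratio of GSTZ1 to HPD was -4.84 in LPS replicate 1 and -2.32 in LPS replicate 3, beyond both ends of its CON range of -3.26 to -2.70.

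The genes around the route were described from lists of gene names. None of their tested members was called by edgeR. Of the tetrahydrobiopterin genes outside the 7, 4 were tested, and 1 was higher at an unadjusted p below 0.05, as were 6.18% of all tested genes. This was GCH1, which encodes the rate-limiting enzyme of tetrahydrobiopterin synthesis. It had 7.86, 8.75 and 9.39 CPM in the CON libraries and 14.0, 17.3 and 39.3 CPM in the LPS libraries, without overlap, and a log2 fold change of 1.45 (SE 0.43, adjusted p = 0.227 by edgeR). SPR, which completes that synthesis, had a log2 fold change of -0.23, and DNAJC12, a co-chaperone of the hydroxylases, had -0.26, with edgeR adjusted p of 0.812 and 0.842.

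Among 7 tested genes that otherwise handle tyrosine or its derivatives, 2 were higher and 1 lower at an unadjusted p below 0.05 (6.18% and 6.33% of all tested genes), with a median log2 fold change of 0.70. HPDL, a relative of HPD, had 0.211 ± 0.075 CPM in CON livers and 2.12 ± 1.02 in LPS livers (mean ± SD, n = 3), about 1 to 3 reads per CON library, and DESeq2 called it (adjusted p = 0.0289) where edgeR did not (0.123). HPDL passed the low-count filter through its LPS libraries (1.31 to 3.27 CPM), so its place among the tested genes already reflects its high LPS level. Both the count of 2 higher genes and the median of 0.70 include HPDL. GOT1, the cytosolic aspartate aminotransferase, had 26.2 to 34.4 CPM in the CON libraries and 38.1 to 88.7 in the LPS libraries, a log2 fold change of 1.08 (edgeR adjusted p = 0.272). GOT2, its mitochondrial counterpart, had 79.5 to 105 CPM in the CON libraries and 31.5 to 71.8 in the LPS libraries, without overlap, and a log2 fold change of -0.85 (edgeR adjusted p = 0.369).

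Of 8 tested genes that act on fumarate and acetoacetate, the end products of the route, or on their next metabolites, 1 was higher and 1 lower at an unadjusted p below 0.05, against the same 6.18% and 6.33%. ACAT1, the mitochondrial thiolase that uses acetoacetyl-CoA, had 57.2 to 126 CPM in the CON libraries and 10.03 to 35.5 in the LPS libraries, without overlap. Its edgeR log2 fold change was -1.77 and did not pass the test (adjusted p = 0.218), while the DESeq2 adjusted p was 0.0252. MDH1 and MDH2, the cytosolic and mitochondrial malate dehydrogenases, had log2 fold changes of 1.26 and -0.46 (edgeR adjusted p of 0.290 and 0.580).

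The 43 tested enzymes that break down other amino acids had a median log2 fold change of -0.51, close to the -0.43 of the 7 genes, with 32 below 0. At an unadjusted p below 0.05, 7 were higher and 8 lower (6.18% and 6.33% of all tested genes), and in 10 of the 43 all LPS libraries lay below all CON libraries, as in GSTZ1 and FAH (9.80% of all tested genes). In 7 of the 43 all LPS libraries lay above all CON libraries, as in 833 of the 12774 tested genes. The 3 of the 43 with the smallest p had higher values in every LPS library than in any CON library. SDS (serine dehydratase) had 3.40 to 8.60 CPM in CON and 831, 46.0 and 253 CPM in LPS libraries, AGXT (alanine-glyoxylate aminotransferase) 282 ± 94.8 and 1102 ± 107 CPM, and HAL (histidine ammonia-lyase) 55.2 ± 17.6 and 424 ± 247 CPM (mean ± SD, n = 3 per group). Their edgeR adjusted p were 0.0851, 0.0902 and 0.0937, and DESeq2 called all 3 (1.36e-13, 2.83e-05 and 3.12e-06). The next, MAT1A, which makes S-adenosylmethionine from methionine and is named here after its values were seen, had 700.3 to 1173 CPM in CON and 78.9 to 226 in LPS libraries (log2 fold change -2.38, edgeR adjusted p = 0.0982, DESeq2 5.92e-05). Among 22 tested regulators and glucocorticoid-responsive genes, a class to which TAT belongs, 6 were higher and 0 lower at an unadjusted p below 0.05 in edgeR (6.18% and 6.33% of all tested genes), and the median log2 fold change was 0.69. PER1 had a log2 fold change of 1.78 and DUSP1 of 2.45 (edgeR adjusted p of 0.270 and 0.338), in both of which LPS replicate 2 was within or below the CON range, and SDS is also in this list. Of the 22 genes, 17 had a log2 fold change above 0 and 5 below. All LPS libraries lay above all CON libraries in 1 (SDS) and below them in 1 (G6PC1), against 833 and 1252 of the 12774 tested genes. Log2 fold changes were -0.76 for G6PC1, -0.47 for NR3C1 and 0.14 for PCK1, which are named here after their values were seen. The difference between TAT and these genes was not tested.

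**Figure D4:**
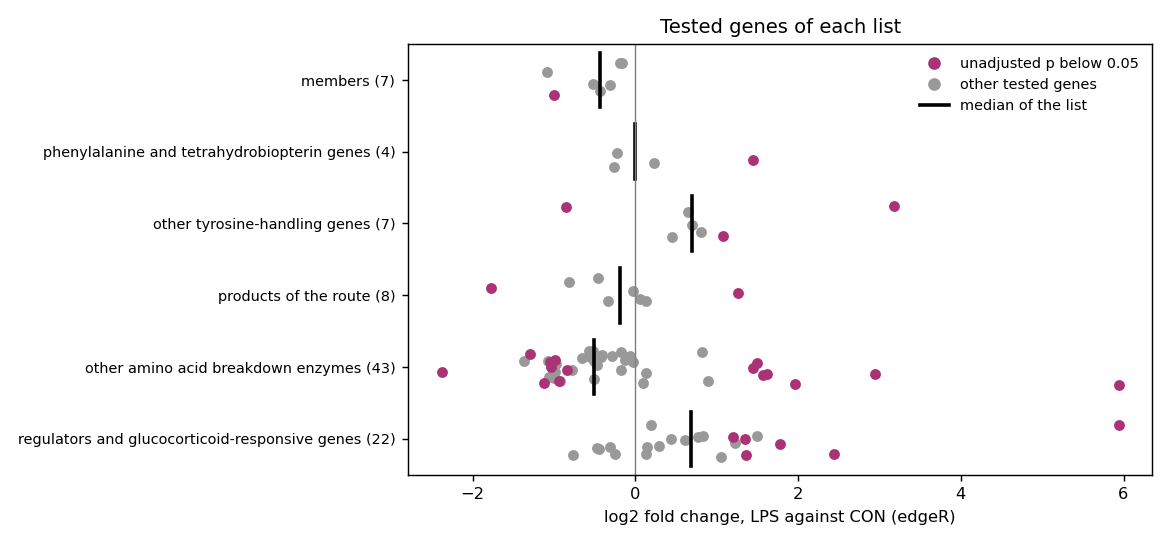
Log2 fold change, LPS against CON, of each tested gene (points) in the 7 genes described here, labelled members, and in the lists around them, with the number tested in brackets; purple points had an unadjusted p below 0.05 and black bars are medians. The 7 genes lie between -1.09 and -0.16, while SDS, at 5.94, is the highest point of both lists that hold it.

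By pattern over the 6 libraries, the genes most like the mean of the 7 were DENND1A, CYB5D2, TBC1D22A, TMEM94 and ABCA3, out of 6897 genes with a symbol and a mean of at least 10 CPM. Their Pearson coefficients with that mean on the log2 CPM scale were 0.999, 0.994, 0.994, 0.993 and 0.993. With 6 points and so many genes searched, values of this size are given as a description. Their log2 fold changes, from -0.81 for ABCA3 to -0.38 for TMEM94, likewise did not pass the test. TAT was most like KLF15, ALDH8A1 and YBX1 (0.953, 0.928 and 0.910). KLF15 had 108 ± 61.0 CPM in CON livers and 108 ± 40.5 in LPS livers (mean ± SD, n = 3). HPD was most like SLC35C2, PSENEN and TAB1 (0.998, 0.985 and 0.979), and GSTZ1 most like OIT3, CTSW and TRAPPC9 (0.988, 0.986 and 0.983). The closest of these, OIT3, had 35.5 ± 8.2 and 13.6 ± 5.9 CPM in the CON and LPS groups, a log2 fold change of -1.39 (edgeR adjusted p = 0.218).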

How the data were processed

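The authors deposited raw read counts per Ensembl gene, not normalized, for 6 input libraries of liver. The submitters' processing notes name cutadapt 1.9.3, HISAT2 and the builds galGal6 and hg38, neither of them a pig build. For the counting program, its strand setting and the build of the pig coordinates: not given in the sources used here. CON replicates 1 and 2 have 2 sequencing entries and 1 column each, and 0 count columns were left unmapped. A table of gene names paired 15029 of 31908 identifiers with a symbol. Counts were tested in R 4.3.3 with edgeR 4.0.16 (filterByExpr with a minimum count of 10, TMM, robust glmQLFit, glmQLFTest). The edgeR, DESeq2 and limma-voom fits were first tried on simulated counts, and the other steps were not. The main thresholds were an adjusted p below 0.05 and a fold above 1.5. Each SE was obtained from the fold change and the F statistic (log2 fold change over the root of F). The smallest chi-square per gene between 2 libraries was 51.8, so none was a repeat of another.

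Alternatives were DESeq2 1.42.0, RLE factors, a filter of 10 counts in all libraries or none, total counts, a replicate block, no fold threshold, voom in limma 3.58.1, and each library left out. The 7 genes, the lists (written from general knowledge) and the rule for named genes were chosen with earlier results of these data known. The rule names every called list member, the 3 with the smallest p in each list, and the genes with the most similar pattern. Some genes of the lists were left out of them and are not reported here. The m6A-IP libraries were not analysed here.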

Additional observations from a re-analysis of the deposited data

How the results depend on the processing

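Over RLE factors, total counts, no filter, the stricter filter, DESeq2, limma-voom and the replicate block, 49 of 49 member values kept their direction and their side of the threshold. Leaving out 1 library reversed 5 of 42 and brought 1 past the threshold (HGD without LPS replicate 2), and the cause was not tested. The ranges were -0.39 to 0.33 for TAT, -0.74 to 0.24 for HPD, -0.62 to 0.015 for PCBD1, -1.75 to -0.026 for HGD, -2.08 to -0.48 for QDPR, -0.76 to -0.38 for FAH and -1.21 to -0.85 for GSTZ1. Reversed values were 0.015 (PCBD1, without LPS replicate 3), 0.33 and 0.034 (TAT, without CON replicate 2 and LPS replicate 2), and 0.16 and 0.24 (HPD, without CON replicate 3 and LPS replicate 3). Members called ranged from 0 to 1 over these fits, and members lower at an unadjusted p below 0.05 from 0 to 4. The latter count was 2 with no filter and 2 with the replicate block, QDPR being added to GSTZ1 in both.

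Over all genes, edgeR called 7 higher and 0 lower. The counts were 8 and 1 with RLE factors, 11 and 1 with total counts, 536 and 349 with no filter, 0 and 0 with the stricter filter, 275 and 143 with DESeq2, 2 and 0 with limma-voom, and from 0 to 512 and from 0 to 470 with 1 library left out, the highest of both without LPS replicate 2. With the replicate block they were 42 and 9. Libraries with the same number correlated at -0.26, 0.22 and 0.03 in their deviations from the group means over 12774 genes, so the numbers were not taken to pair the samples. The median log2 fold change of all genes was -0.12 with total counts, against 0.01. The smallest library, LPS replicate 1 with 4348478 counts, held the lowest member count.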
